A study of Homo sapiens with 6 samples.

Results

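The genes described here are 31 genes of cholesterol synthesis, sterol transport and SREBP2 control, measured in A673 Ewing sarcoma cells that did or did not carry the LOX propeptide (LOX-PP). They were taken from a list of gene symbols, and a gene counted as present where a probe of the array carried one of its transcript accessions. All 31 were found among the 20503 genes that could be named on the array, and each is given by the probe with the highest mean signal. Most sat lower on the LOX-PP arrays. Measured against the median difference of all tested probes, 28 of the 31 were lower, all 20 synthesis enzymes among them, with a median of -0.74 on the log2 scale. By the same measure 56.5% of all named genes with a tested probe were lower. INSIG1 stood lowest at -2.35, and ABCA1, a sterol exporter, highest at 1.42. No single gene passed the adjusted threshold of 0.05, and replicate 3 of the LOX-PP arrays lay much closer to the empty arrays than replicates 1 and 2 did.

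Cells make cholesterol from acetyl-CoA by way of mevalonate, the isoprenoid diphosphates, squalene and lanosterol. The genes for these enzymes share a transcription factor, SREBP2, which is made as a membrane protein of the endoplasmic reticulum. SCAP carries it to the Golgi for cleavage when membrane sterol is low, and the INSIG proteins hold SCAP back when sterol is high. When sterols are plentiful, oxysterols activate the nuclear receptor LXR, which switches on the exporters ABCA1 and ABCG1 and the ubiquitin ligase MYLIP.

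RNA of 3 A673/TR/empty and 3 A673/TR/LOX-PP samples was hybridised to 6 Agilent arrays in 1 colour, to ask which genes respond to LOX-PP. A673 is a Ewing sarcoma cell line, and both groups carry the tetracycline repressor (TR) at a high level. The empty cells hold the lentiviral vector with no cDNA, and the A673/TR/LOX-PP cells hold the same inducible vector with the propeptide of lysyl oxidase. The lines were made by infection, selection and, for some uses, picking of stable clones, and the sources used here do not say whether a clone or a mixed population went onto the arrays. The study's methods describe 3 separate experiments, so the p-values measure the spread between 3 cultures of each kind. In the LOX-PP group that spread also holds another slide and scan date on replicate 1. No source used here says that the cultures came from separately made lines. LOX-PP and other differences between the 2 lines therefore cannot be told apart. Doxycycline was given to the LOX-PP cultures over 72 h. The labels give 1 µM doxycycline for all 6 samples, whereas the methods name it clearly for the LOX-PP cells, so whether the empty cultures received it is not settled. The methods use 1 µg/ml for cell culture, another unit and dose than the labels, and state no dose for the arrays. In an extract of a whole culture, fewer cells that express a gene and less of its RNA per cell cannot be told apart.

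Promoter sequences were looked up for the 31 genes, because SREBP2 binds DNA and works with the factors NF-Y and Sp1. RefSeq promoters (build GRCh38.p14, from 250 bases before to 50 bases after the start) were matched for 27 of the 31. Motifs were searched on both strands as the sterol regulatory element TCACNCCAC, the CCAAT box CCAAT that NF-Y reads, the Sp1 box GGGCGG, and an LXR element of 2 copies of AGGTCA set 4 bases apart. A CCAAT box was found in 20 of the 27 promoters (74.1%), and in 42.5% of the 12790 tested genes that had a promoter. Among the synthesis enzymes it was found in 14 of 17 (82.4%). The Sp1 box was found in 25 of 27 (92.6%), beside 70.5% of tested genes. The sterol regulatory element in this spelling was found in 1 of 27 (3.70%), beside 1.42% of tested genes. The LXR element in this spelling was found in 0 of 27 and in 0 of the 12790. It occurred in only 7 of 35116 promoters, so its absence here cannot show whether the 27 promoters hold LXR sites of other spellings. These matches are letters in a fixed window and do not show binding.

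The 250 bases before the start are printed for 4 genes. SREBF2 is the gene with the sterol regulatory element, INSIG1 has the largest difference of the 31, MVK has the most CCAAT boxes of the 4, and HSD17B7 is the late enzyme with the smallest p. Capitals mark the sterol regulatory element and every CCAAT box, which reads ATTGG on the opposite strand; Sp1 boxes are left in lower case, and no capital motif overlaps another motif searched.
SREBF2, chr22:41832855-41833104, plus strand: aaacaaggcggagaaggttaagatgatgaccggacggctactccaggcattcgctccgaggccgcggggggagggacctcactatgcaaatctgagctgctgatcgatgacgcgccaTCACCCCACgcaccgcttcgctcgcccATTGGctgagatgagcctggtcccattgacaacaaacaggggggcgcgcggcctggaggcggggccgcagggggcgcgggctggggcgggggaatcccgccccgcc
INSIG1, chr7:155297628-155297877, plus strand: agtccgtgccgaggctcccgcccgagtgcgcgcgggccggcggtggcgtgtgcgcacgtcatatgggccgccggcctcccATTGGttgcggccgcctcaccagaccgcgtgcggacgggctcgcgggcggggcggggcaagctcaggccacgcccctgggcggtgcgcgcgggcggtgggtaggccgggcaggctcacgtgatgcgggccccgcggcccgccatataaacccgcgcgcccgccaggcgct
MVK, chr12:109573544-109573793, plus strand: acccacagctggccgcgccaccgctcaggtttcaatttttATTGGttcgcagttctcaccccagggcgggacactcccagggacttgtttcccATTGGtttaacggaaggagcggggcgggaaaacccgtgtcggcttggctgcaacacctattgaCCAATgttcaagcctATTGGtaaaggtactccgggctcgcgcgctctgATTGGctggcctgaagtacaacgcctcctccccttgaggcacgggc
HSD17B7, chr1:162790452-162790701, plus strand: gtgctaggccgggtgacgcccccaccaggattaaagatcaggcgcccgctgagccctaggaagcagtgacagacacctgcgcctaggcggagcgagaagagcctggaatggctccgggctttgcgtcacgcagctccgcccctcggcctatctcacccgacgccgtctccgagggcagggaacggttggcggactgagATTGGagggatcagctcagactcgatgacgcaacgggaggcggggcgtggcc
The element of SREBF2 begins 133 bases before the start, and a CCAAT box follows it. MVK shows 5 CCAAT boxes in this stretch, and the other 3 genes show 1 each. Over the whole promoter, INSIG1 held 6 Sp1 boxes and SREBF2 held 3.

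All levels below are log2 signals over the 75th percentile of the array's gene probes, so 0 is that percentile, and a level of 1 gene is never set against that of another because probes differ in brightness. Differences are LOX-PP minus empty. Over all 32647 tested probes the median difference was 0.13, and it was -0.034 after quantile normalization. Differences and their confidence intervals are therefore given relative to that median, while each p-value tests the difference before this subtraction. Between 56.9% and 74.8% of spots were well above background per array. Of 10 quality measures of the scanner software, 5 were out of range on each empty array. On LOX-PP replicates 1 to 3 the numbers out of range were 1, 6 and 5. The net signal of negative controls ran from 64.4 on LOX-PP replicate 1 to 575 on LOX-PP replicate 2. LOX-PP replicate 1 was on slide 2 and was scanned on another date, and the other 5 arrays were on slide 1. What these measures mean for the sterol genes was not tested. Of 10 Ewing sarcoma markers, all 10 were well above background on all 6 arrays, and their median difference was 0.060. Of 7 markers of other cell types, PTPRC, CD3E, EPCAM and CD68 were well above background on all 6 arrays and PECAM1 on 5, while CDH1 and ALB were so on none. The 5 that were tested all lay above the median of all probes, with a median of 0.36 and PECAM1 highest at 1.23 (limma adjusted p = 0.0955). Their part in the differences of the sterol genes was not tested. The single LOX probe was lower, not higher, on the LOX-PP arrays (-0.70 ± 0.58, SD, n = 3) than on the empty arrays (0.13 ± 0.22, SD, n = 3). Every LOX-PP array lay below every empty array, as on 18.2% of named genes. The difference was -0.95, with a limma adjusted p of 0.217. No file used here tells whether this probe lies inside the propeptide cDNA, so every direction rests on the labels.

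All 31 sterol genes were bright enough to be tested, 30 of them on all 6 arrays. The exception was ABCA1, which was well above background on 2 of the 3 arrays of each group. Differences ran from -2.35 to 1.42 with a median of -0.74, whereas the median of the 16593 named genes with a tested probe was -0.093. Being lower than the median of all tested probes was common to 56.5% of those genes. After Benjamini-Hochberg adjustment over all tested probes limma called 0 of the 31 genes, while 3.36% of named genes were called lower and 3.71% higher. The smallest adjusted p was 0.0816, for IDI1.

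At an unadjusted p under 0.05, 14 of the 31 were lower and 0 higher, against 12.0% lower and 11.7% higher among all named genes. The methods' t-test gave 7 lower at that level, where it called 12.5% of named genes lower, and 0 after adjustment. On 14 genes every LOX-PP array lay below every empty array, as it did on 18.2% of named genes. ABCA1 alone had every LOX-PP array above every empty array, a pattern held by 15.4% of named genes.

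The unadjusted count depended on single arrays. Without empty replicate 1, 2 or 3, the sterol genes lower at that level numbered 7, 8 and 5, beside 7.53%, 7.67% and 9.88% of named genes. The 5 were MVK, IDI1, SQLE, HSD17B7 and SOAT1. Without LOX-PP replicate 1 there were 4 lower and 2 higher (INSIG2 and ABCA1), beside 11.9% and 15.6% of named genes. Without LOX-PP replicate 2 there were 4 lower and 1 higher (ABCA1), beside 10.9% and 11.3%. The 4 lower genes were IDI1, SQLE, HSD17B7 and SOAT1 both times, a count near the share of all genes. Without LOX-PP replicate 3 there were 19 lower, beside 12.3%.

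**Figure D1:**
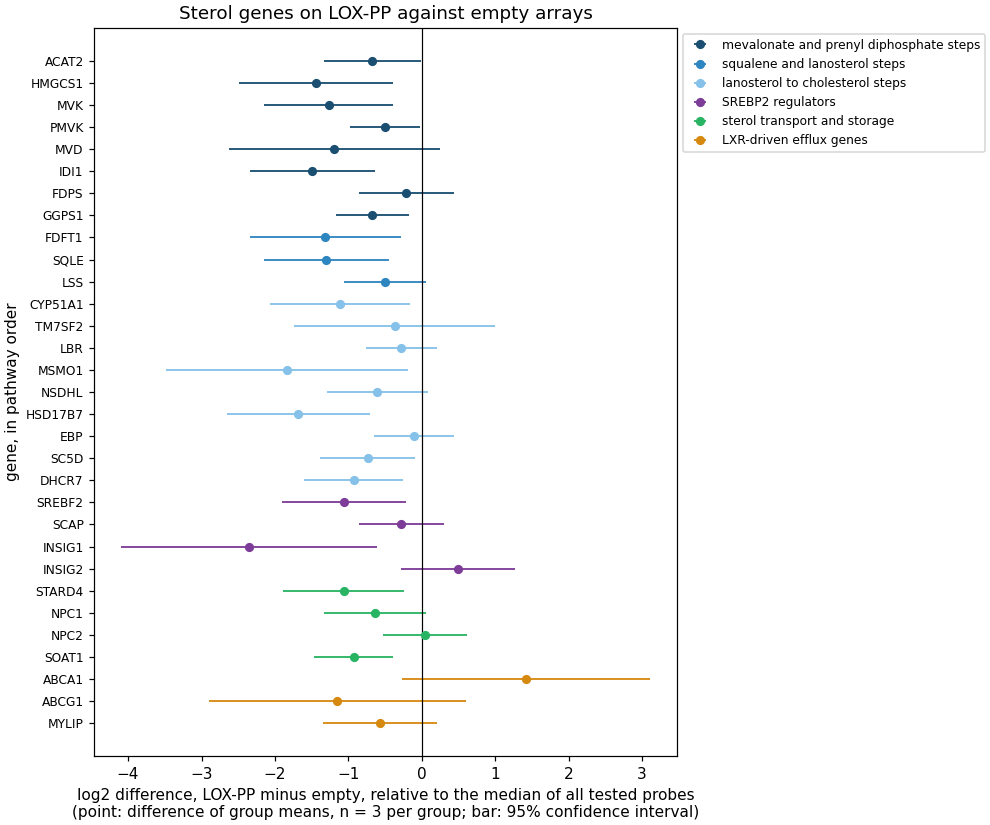
Difference between LOX-PP and empty arrays for each of the 31 genes, in pathway order and coloured by class (horizontal axis: log2 difference relative to the median of all tested probes; point: difference of the means of 3 arrays each; bar: 95% confidence interval). Of the points, 28 lie left of 0, with INSIG1 at -2.35 and MSMO1 at -1.83 farthest left and ABCA1 at 1.42 farthest right.

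The arrays of the LOX-PP group did not move alike. On LOX-PP replicate 1, 26 of the 31 genes lay below the lowest empty array, and on replicate 2, 25 did. Replicate 3 had 14 there. Above the highest empty array lay 1, 2 and 8 sterol genes on replicates 1 to 3, beside 33.9%, 37.9% and 39.4% of all named genes. Over all named genes without a missing value the shares below the lowest empty array were 43.1%, 33.9% and 32.2% for replicates 1 to 3, so replicates 1 and 2 stood out for the sterol genes and replicate 3 stood out less. Replicate 3 was the highest of the 3 LOX-PP arrays in 30 of 31 sterol genes, and in 36.8% of all named genes.

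Each array was left out in turn. Without LOX-PP replicate 3, limma called 9 of the 31 genes, all lower, and 1.83% of named genes lower. They were HMGCS1, MVK, IDI1, FDFT1, SQLE, CYP51A1, HSD17B7, SREBF2 and INSIG1, with differences from -3.27 for INSIG1 (adjusted p = 0.0102) to -1.45 for SREBF2 (adjusted p = 0.0473). Without LOX-PP replicate 1, which is also the comparison within slide 1, limma called INSIG2 (0.80 higher, adjusted p = 0.0482), where 4.11% of named genes were called higher. Without any of the other 4 arrays the count stayed at 0. With 1 array on slide 2, slide, scan date and culture cannot be told apart for LOX-PP replicate 1. What sets replicate 3 apart was not tested.

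**Figure D2:**
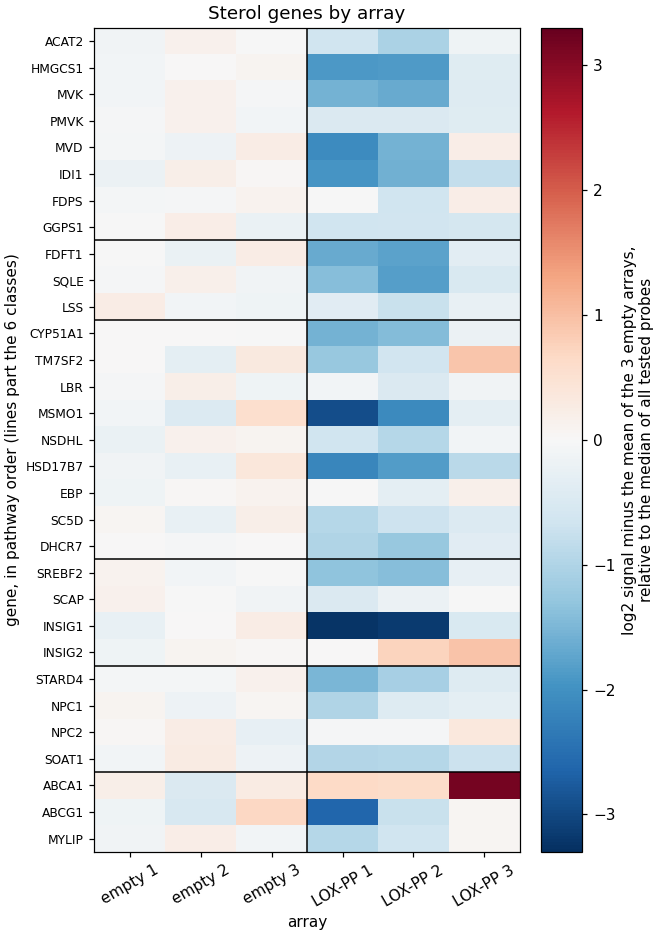
Each of the 31 genes (rows, in pathway order, horizontal lines between the 6 classes) on each of the 6 arrays (columns), coloured by log2 signal minus the mean of the 3 empty arrays, relative to the median of all tested probes. The columns of LOX-PP replicates 1 and 2 are blue over most rows, and the column of replicate 3 is paler. Before the median was subtracted, 26, 25 and 14 of 31 genes lay below the lowest empty array on LOX-PP replicates 1 to 3. The plotted values place some genes differently. On replicate 3, ACAT2, FDFT1, LSS and NPC1 lie below the lowest empty array only as plotted. On replicate 2, EBP, SCAP and ABCG1 lie there only as plotted. On replicate 1, LBR lies below it only before the subtraction.

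The 8 genes from acetyl-CoA to the prenyl diphosphates were all lower, with a median of -0.93 and a range from -1.49 to -0.21. IDI1, the isomerase that makes the reactive isoprene unit, measured 3.40, 3.73 and 3.73 on empty replicates 1 to 3 and 1.62, 2.19 and 2.96 on LOX-PP replicates 1 to 3. All 3 LOX-PP arrays were lower, by steps that differed widely among them, and the difference was -1.49 (SE 0.36, limma adjusted p = 0.0816). MVK, which adds the first phosphate to mevalonate, measured 4.55, 4.75 and 4.71 on the empty and 3.06, 3.17 and 4.36 on the LOX-PP arrays. The groups did not overlap, but replicate 3 sat near the empty arrays (difference -1.27, SE 0.37, adjusted p = 0.138). HMGCS1, the synthase that joins acetyl-CoA to acetoacetyl-CoA on the way to mevalonate, measured 1.88, 1.94 and 2.16 on the empty and 0.028, 0.29 and 1.70 on the LOX-PP arrays. Its pattern was the same, with 2 low arrays and replicate 3 just below the empty range (difference -1.45, SE 0.44, adjusted p = 0.148).

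The other 5 genes of these steps were lower by less or with more spread. MVD, the decarboxylase that yields isopentenyl diphosphate, differed by -1.19, and by level its replicate 3 lay above all 3 empty arrays. Relative to the median of all tested probes, replicate 3 lay at 0.23 from the empty mean, below empty replicate 3 at 0.25. GGPS1, which lengthens the chain for protein prenylation, differed by -0.68, and its groups did not overlap. ACAT2, the thiolase at the start of the route, differed by -0.67 with overlap. PMVK, the second mevalonate kinase, differed by -0.51, and its LOX-PP arrays lay together below the empty ones. FDPS, the farnesyl diphosphate synthase, was close to the median of all probes at -0.21 (95% confidence interval -0.86 to 0.44), and without LOX-PP replicate 2 its sign turned to 0.075.

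The 3 enzymes of squalene and lanosterol had a median of -1.30. SQLE, the squalene epoxidase, measured 4.15, 4.30 and 4.18 on the empty and 2.74, 2.54 and 3.83 on the LOX-PP arrays. All LOX-PP arrays were lower, and the difference was -1.30 (SE 0.36, adjusted p = 0.118). FDFT1, the squalene synthase that commits farnesyl diphosphate to sterols, measured 4.66, 4.40 and 5.03 on the empty and 2.98, 3.08 and 4.47 on the LOX-PP arrays. Replicate 3 reached into the empty range here (difference -1.31, SE 0.43, adjusted p = 0.176). LSS, the cyclase that closes the sterol rings, measured 4.53, 4.14 and 4.25 on the empty and 3.87, 3.73 and 4.19 on the LOX-PP arrays. The groups overlapped and the difference was smaller, at -0.50 (SE 0.23, adjusted p = 0.405), and the second probe of LSS gave -0.57.

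The 9 enzymes from lanosterol to cholesterol had a median of -0.74. HSD17B7, a keto-sterol reductase of the demethylation complex, measured 2.21, 2.03 and 2.80 on the empty and 0.12, 0.67 and 1.57 on the LOX-PP arrays. All LOX-PP arrays lay below the empty arrays by a gap wider than for any other gene of these steps, and the difference was -1.68 (SE 0.41, adjusted p = 0.0825). Its 3 probes agreed in direction, with -1.68, -1.81 and -1.49. DHCR7, the reductase of a last step to cholesterol, measured 5.75, 5.64 and 5.83 on the empty and 4.69, 4.64 and 5.48 on the LOX-PP arrays. The empty arrays were tight and replicates 1 and 2 of LOX-PP nearly equal (difference -0.93, SE 0.28, adjusted p = 0.165). CYP51A1, the lanosterol demethylase, measured 3.76, 3.71 and 3.85 on the empty and 2.15, 2.50 and 3.69 on the LOX-PP arrays. Replicate 3 missed the empty range by very little, and the difference was -1.12 (SE 0.40, adjusted p = 0.218).

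MSMO1, the methyl sterol oxidase that acts beside HSD17B7, had the largest difference among the enzymes, -1.83, with the widest spread of the 20 (SE 0.69, adjusted p = 0.219). SC5D, a sterol desaturase, differed by -0.74 without overlap. NSDHL, the dehydrogenase of the same demethylation complex, differed by -0.61 with overlap. TM7SF2 and LBR, which share the sterol reductase reaction after CYP51A1, differed by -0.37 and -0.28, and EBP, the sterol isomerase, by -0.11. The groups overlapped for these last 3 genes. Before the median of all tested probes was subtracted, EBP differed by 0.021. TM7SF2 turned to 0.13 without LOX-PP replicate 1 and EBP to 0.060 without LOX-PP replicate 2.

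The 4 regulators of SREBP2 did not all lie on the same side. SREBF2, the gene of SREBP2 itself, measured 3.05, 2.80 and 3.03 on the empty and 1.57, 1.71 and 2.80 on the LOX-PP arrays. All LOX-PP arrays were lower, replicate 3 by 0.0087, and the difference was -1.06 (SE 0.35, adjusted p = 0.191). INSIG1, an SREBP2 target that retains SCAP, measured 2.57, 2.79 and 3.16 on the empty and -0.44, -0.16 and 2.45 on the LOX-PP arrays. Replicates 1 and 2 stood about 3 log2 units below the empty arrays and replicate 3 just below them, giving -2.35, a 5.11-fold lower signal (SE 0.74, adjusted p = 0.143).

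INSIG2, which has the same role without depending on SREBP2 to the same degree, measured -0.15, 0.029 and 0.12 on the empty and -0.056, 0.88 and 1.05 on the LOX-PP arrays. Replicates 2 and 3 were above the empty arrays and replicate 1 among them, with a difference of 0.50 (95% confidence interval -0.28 to 1.27, adjusted p = 0.323). The second, dimmer probe of INSIG2 gave -0.74, so its probes disagree in direction, and the mean of both was -0.041. SCAP measured 2.91, 2.71 and 2.76 on the empty and 2.25, 2.77 and 2.90 on the LOX-PP arrays. By level only replicate 1 was low, and the difference of -0.28 had a 95% confidence interval from -0.86 to 0.30 (adjusted p = 0.766). Relative to the median of all tested probes, replicate 2, at -0.19 from the empty mean, was below every empty array too.

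**Figure D3:**
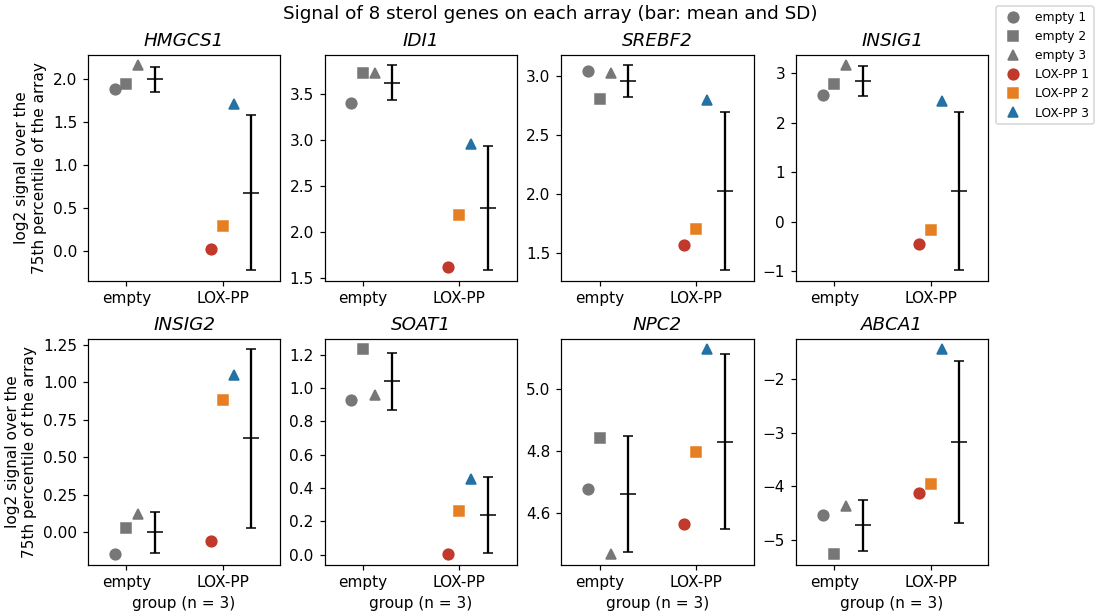
Log2 signal over the 75th percentile of the array for 8 of the genes on each of the 6 arrays (vertical axes differ between panels and do not start at 0; marker: array; bar: mean and SD of 3 arrays). In HMGCS1, SREBF2 and INSIG1 the triangle of LOX-PP replicate 3 lies just below the empty arrays (2.45 in INSIG1) while replicates 1 and 2 lie far below (-0.44 and -0.16 in INSIG1), and SOAT1 has all 3 LOX-PP arrays apart.

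Of the 4 transport and storage genes, 3 were lower. SOAT1, which esterifies cholesterol for storage, measured 0.93, 1.23 and 0.96 on the empty and 0.0024, 0.26 and 0.46 on the LOX-PP arrays. The gap between its groups, 0.47, was the widest of the 14 genes without overlap, and replicate 3 was low too (difference -0.93, SE 0.23, adjusted p = 0.0974). STARD4, a cytosolic sterol carrier and SREBP2 target, measured 0.23, 0.19 and 0.55 on the empty and -1.25, -0.61 and 0.028 on the LOX-PP arrays. All LOX-PP arrays were lower, spread over more than a log2 unit, with a difference of -1.06 (SE 0.35, adjusted p = 0.184).

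NPC1 and NPC2 pass cholesterol out of the lysosome together. NPC1 measured 1.88, 1.55 and 1.94 on the empty and 0.75, 1.53 and 1.58 on the LOX-PP arrays, and replicate 1 gave most of its difference of -0.63 (SE 0.29, adjusted p = 0.367). NPC2 measured 4.68, 4.84 and 4.47 on the empty and 4.57, 4.80 and 5.13 on the LOX-PP arrays. The groups of NPC2 overlapped, its difference was 0.042 (95% confidence interval -0.53 to 0.61, adjusted p = 0.735), and the sign turned under several settings.

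The 3 genes driven by LXR went different ways. ABCA1, which exports cholesterol to apolipoproteins, was dim, at -4.53, -5.26 and -4.37 on the empty and -4.13, -3.95 and -1.45 on the LOX-PP arrays. Replicate 3 supplied most of its difference of 1.42 (SE 0.71, adjusted p = 0.269), which was 0.56 without that array, and the second probe gave 0.46. ABCG1, its partner in export to lipoprotein particles, measured -2.51, -2.93 and -1.58 on the empty and -5.01, -2.92 and -2.16 on the LOX-PP arrays. The groups overlapped, and replicate 1 gave most of the difference of -1.15 (SE 0.74, adjusted p = 0.475). MYLIP, the ligase that marks lipoprotein receptors for degradation, measured 1.93, 2.21 and 2.07 on the empty and 1.06, 1.58 and 2.25 on the LOX-PP arrays. By level replicate 3 was above all empty arrays, and the difference was -0.57 (SE 0.33, adjusted p = 0.490). Relative to the median of all tested probes, replicate 3 lay at 0.064 from the empty mean, below empty replicate 2 at 0.21.

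Set side by side as class medians, the synthesis enzymes stood at -0.83, the SREBP2 regulators at -0.67, transport and storage at -0.78 and the LXR-driven genes at -0.57, beside -0.093 for all named genes. All 20 synthesis enzymes were lower, but 3 of 4, 3 of 4 and 2 of 3 in the other classes, beside 56.5% of named genes. No test was made of the difference between classes of so few genes. Relative to each gene's mean over the 6 arrays, the synthesis median was 0.49, 0.46 and 0.50 on the empty and -0.69, -0.76 and 0.19 on the LOX-PP arrays. By this median every LOX-PP array was below every empty array, and replicate 3 was nearest to the empty arrays. Gene by gene, that separation held for 10 of the 20 synthesis enzymes, beside 18.2% of named genes. The regulators had 0.45, 0.31 and 0.25 on the empty and -0.59, -0.47 and 0.44 on the LOX-PP arrays, where replicate 3 fell within the empty range. The LXR-driven genes had 0.16, 0.073 and 0.17 on the empty and -0.69, -0.17 and 0.62 on the LOX-PP arrays, with replicate 3 above the empty range. Without LOX-PP replicate 3 the synthesis median was -1.10 and the LXR-driven median -0.88, and without LOX-PP replicate 1 the latter was -0.32. Quantile normalization brought the median of the regulators to -0.41 and that of the LXR-driven genes to -0.29.

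**Figure D4:**
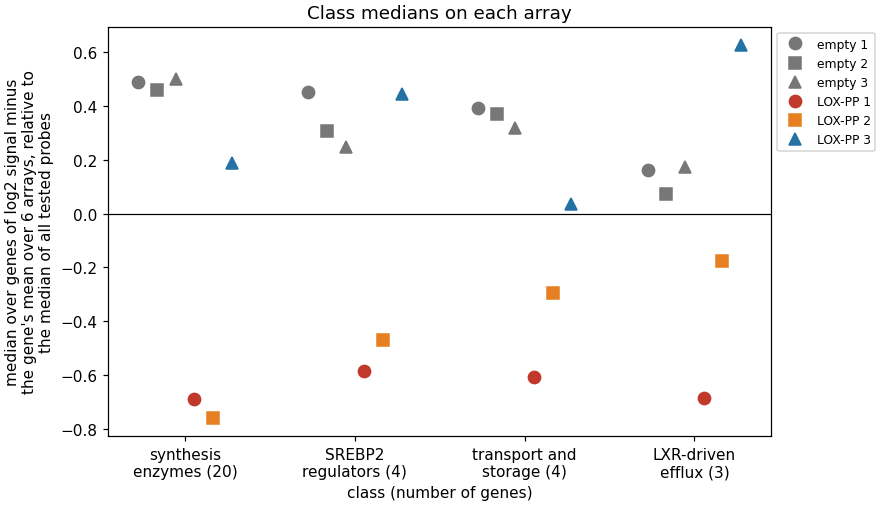
Median over the genes of 4 classes on each of the 6 arrays (vertical axis: log2 signal minus the gene's mean over the 6 arrays, relative to the median of all tested probes; marker: array; number of genes in brackets). For the synthesis enzymes the empty arrays lie at 0.46 to 0.50 and the LOX-PP arrays at -0.76 to 0.19, and for the LXR-driven genes LOX-PP replicate 3 lies above the empty arrays at 0.62.

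A wider set of 73 genes around the pathway, in 6 lists, had 71 tested genes, of which 3 passed the adjusted threshold, all lower, beside the 3.36% of named genes called lower. The counts of lower genes below stand beside 56.5% of all named genes. None of the 15 proteases, cofactors and degradation factors of SREBP passed (median -0.38, 11 lower), with NFYB, a subunit of NF-Y, the smallest p of the list (-0.85, adjusted p = 0.153). SREBF1, which encodes the related SREBP1, differed by -0.90 with overlap between the groups (limma adjusted p = 0.281). Of 10 further SREBP targets, mostly of fatty acid synthesis, 0 passed (median -0.63, 8 lower), and LPIN1, a phosphatidate phosphatase, had the smallest p (-1.37, adjusted p = 0.0829). The 9 tested receptors and targets of LXR had a median of -0.24 with 8 lower and 0 past the threshold, led by PLTP, a phospholipid transfer protein (-0.70, adjusted p = 0.237). The 13 genes of the isoprenoid branch and prenylation had a median of -0.47 with 12 lower and 0 past the threshold, led by NUS1, a subunit of the dolichol synthase (-0.58, adjusted p = 0.248).

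The 3 that passed came from 2 lists, and their number was near the share of all named genes. CH25H, which makes an oxysterol that restrains SREBP cleavage, fell from -1.06, -1.07 and -0.55 on the empty to -3.32, -2.83 and -2.54 on the LOX-PP arrays, with no overlap and every LOX-PP array well below the empty arrays, replicate 3 the least (difference -2.13, SE 0.29, adjusted p = 0.0126). OSBPL5, a lipid transfer protein, fell by 1.54 (adjusted p = 0.0232), and TMEM41B, a lipid scramblase, fell by 1.34 (adjusted p = 0.0266). Second probes gave -0.015 for OSBPL5 and -0.19 for TMEM41B. The list of 20 sterol transfer, uptake and ester genes that holds OSBPL5 and TMEM41B had a median of -0.27 with 12 lower and 8 higher. Highest were SOAT2 (1.57, limma adjusted p = 0.0676), well above background on 2 of 3 empty arrays, and LRP1 (1.23, adjusted p = 0.0784). The list of oxysterol enzymes with CH25H had -0.13 with 2 of 4 lower. All 3 calls were lost without empty replicate 1 (adjusted p = 0.0700 for CH25H) or empty replicate 2 (0.0608). OSBPL5 and TMEM41B were also lost without LOX-PP replicate 2 (0.0720 for both), and TMEM41B without empty replicate 3 (0.0566) or LOX-PP replicate 3 (0.0520).

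Differences over all genes varied with brightness and position, and these values stand beside those of the sterol genes. When the named genes were parted into 10 groups by mean signal, the group medians ran from 0.27 in the dimmest to -0.28 in the eighth. The 2 brightest groups, with medians of -0.245 and -0.015, held 6 and 7 of the 31 sterol genes. FDFT1 and SQLE lie on chromosome 8, whose 558 named genes had a median of -0.42. The part of brightness and of this chromosome in the differences of the sterol genes was not tested.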

How the data were processed

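The authors deposited spot intensity values for 6 Agilent 1-colour arrays, written by the Feature Extraction software (version 10.7 per the submitters' processing notes), already corrected for background, with flags for outlier spots and spots well above background. They also deposited a table of processed log2 values, which lay within 0.02 of the values used here on 50537 of 50599 probes once each probe was centred on its median. The columns of that table had medians of -0.12, -0.34 and 0.15 on the empty and -0.23, 0.41 and 0.13 on the LOX-PP arrays.

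From the deposited intensity, control and outlier spots were left out. Replicate spots were averaged on the log2 scale, and each array was set relative to its 75th percentile. A probe was tested where it was well above background on 3 or more of the 6 arrays, with limma (version 3.58.1, R 4.3.3), no block and Benjamini-Hochberg adjustment over all tested probes at 0.05. The steps were tested on simulated data. The number of arrays limits the precision, and no spot was saturated (0 of 58717 gene spots per array).

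Of 50599 probes, 28174 were named through a RefSeq table of a later build than the array design, used for names and chromosomes, and promoters came from the same build (GRCh38.p14). Values on every array are given for the 3 genes of each class with the smallest p, or for the whole class where it held 4 or fewer. Of the wider lists, each gene past the threshold and that with the smallest p are named. SREBF1, SOAT2 and LRP1 were named after their values were seen. The members and lists were chosen with earlier results of these data known. Alternatives were other normalizations, background corrections and filters, the authors' processed values, slide and replicate blocks, the methods' t-test, the mean over a gene's tested probes, and leaving out each array. The spot mean signal was not used here, so normexp (offset 50) ran on the median spot signal. Some sterol genes are not reported here.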

Additional observations from a re-analysis of the deposited data

How the results depend on the processing

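In place of 1849 probes past the threshold there were 516 with no filter on dim probes, 860 with a replicate block, 566 with the methods' t-test and 407 to 2062 with 1 array left out. The number of sterol genes past it was 0 in every setting except the slide as a block (1 gene, INSIG2) and leaving out 1 array (0 to 9). The slide block equals leaving out LOX-PP replicate 1, the lone array of its slide, so its counts are the same by construction. The median of the transport and storage genes moved from -0.78 to -0.55 with quantile normalization, and the cause was not tested. Single genes near 0 changed sign. NPC2 was -0.077 with normexp, -0.13 with no filter on dim probes and -0.12 to 0.19 with 1 array left out. TM7SF2 was 0.13 with the slide block and -1.01 to 0.13 with 1 array left out. FDPS was -0.42 to 0.075 and EBP -0.24 to 0.060 with 1 array left out, and INSIG2 was -0.041 as the mean of its probes. Between 26 and 29 of the 31 genes were lower in each setting. Deviations of same-numbered arrays correlated at 0.27, -0.39 and 0.23, and those of arrays with unlike numbers at -0.46 to 0.39. With 3 arrays per group, each centred on its group mean, these values cannot show whether replicate numbers pair the samples. With the replicate block 0 sterol genes passed.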
